A study of Homo sapiens with 1536 samples.

Results

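A pooled breast cancer screen of 180 compounds held several inhibitors of kinases of the cell cycle and of mitosis. Some serve below as comparators, and 4 are described here, chosen by the targets in the study's compound list. These 4 are PHA793887 (CDK), Alisertib (Aurora kinase), KW2449 (FLT3, FGFR, Bcr-Abl and Aurora) and MK1775 (Wee1). They took up 32 of the 1536 wells, since each was given at 10, 100, 1000 and 10000 nM in 2 replicate wells. Every well held a pool of 5 cell lines, namely the ER+ line ZR-75-1, the HER2+ line SKBR3 and the triple-negative lines BT-20, HCC-38 and MDA-MB-231, and each line carried 12 sgRNAs. All of these cells, DMSO controls included, had a doxycycline-inducible Cas9 that was switched on with doxycycline (100 ng/mL) for 7 days before treatment and kept on, and 96 wells received DMSO in place of a compound for the same 72 h. Every line was an engineered population in which the guide is read from a barcode, so that a value describes all cells with that barcode and not only those in which the gene was cut.

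Cyclin-dependent kinases (CDKs), paired with cyclins, drive entry into DNA synthesis and into mitosis, and some members of the family act in transcription. Wee1 holds CDK1 back by phosphorylating it, which delays mitosis while DNA is copied or repaired, and Aurora kinases build the spindle and help to separate the chromosomes. Inhibitors of these kinases can thus stop a cell at different points of the cycle, and a count of cells after a few days reads both slower division and cell death without telling them apart.

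The sgRNAs disable regulators of the proteostasis network: HSF1 and HSF2 (heat-shock response), ERN1, which encodes IRE1, XBP1, ATF3, ATF4 and ATF6 (unfolded protein response), NFE2L2, which encodes NRF2, and its inhibitor KEAP1 (oxidative stress response), and ATG7 (autophagy). The remaining guides target SLC35F2, a solute carrier that takes up the cytotoxic compound YM155, or no gene (sgNT, a pool of 5 non-targeting guides). For each compound, a rule described with the sgRNA results picked the guides whose cells had the highest and the lowest AUC, a summary of the response over all doses, against the other guides of their line, and these are the target-specific part (20 nt each, 5′ to 3′, in lower case with no base marked) of the 6 gene-targeting guides so named. A genome was not used here, so no cut site is given.
sgATF4: agatgaccttctgaccacgt
sgATG7: cttgaaagactcgagtgtgt
sgERN1: tctccctcaatggtacacga
sgKEAP1: cagcaccgttcatgacgtgg
sgNFE2L2: cacatccagtcagaaaccag
sgSLC35F2: catgacagagccatcaacac

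Relative cell number is the number of cells with a given line and guide in a treated well, read off the spike-in standards of that well, as a percentage of the median over DMSO wells. The value of a line is the mean over its sgRNAs (12 in 4 lines, and 10 in ZR-75-1, where sgHSF1 and sgKEAP1 varied too much between DMSO wells), and the 5 lines of a well are therefore not independent of each other. In the 96 DMSO wells the mean ranged from 100.9 to 101.8% over the 5 lines and the SD from 10.6 percentage points in BT-20 to 14.3 in ZR-75-1. The wells of the 4 compounds held 30125 to 1483387 reads (median 421521.5) and the DMSO wells 155067 to 986006 (median 522691), and the fewest reads behind any value of the 4 compounds was 49. In 5 of the 8 PHA793887 wells, the share of reads on barcode pairs that were never made (0.949 to 2.06%) lay above that of every DMSO well (highest 0.924%, median 0.183%), which was the case in none of the 8 wells of Alisertib, KW2449 or MK1775.

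Each compound lowered cell number in all 5 lines at 10000 nM, and no value at 10 nM passed as lower than DMSO in the main fit. Of the 80 combinations of compound, dose and line, 47 were lower than DMSO (limma on log2 relative cell number, Benjamini-Hochberg adjusted p under 0.05 over all compounds, doses and lines), where 32.8% of all combinations in the screen were, and 0 were higher, where 1.40% were. PHA793887 was lower in 15 of its 20 combinations, Alisertib in 14, MK1775 in 11 and KW2449 in 7. By dose, 0 of 20 combinations were lower at 10 nM, 11 at 100 nM, 16 at 1000 nM and 20 at 10000 nM, against 7.62%, 18.9%, 33.5% and 66.1% of the combinations of all compounds with these doses. In 39 of the 80, both wells also lay below the lowest of the 96 DMSO wells of the line (26.8% in the whole screen). Between compounds, with 2 wells against 2, an exact test could not go below p = 0.333. Unless another tool is named, adjusted p values therefore come from limma fits that share the spread between wells over the compounds, and they measure the spread between wells of a single pool of cells.

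**Figure D1:**
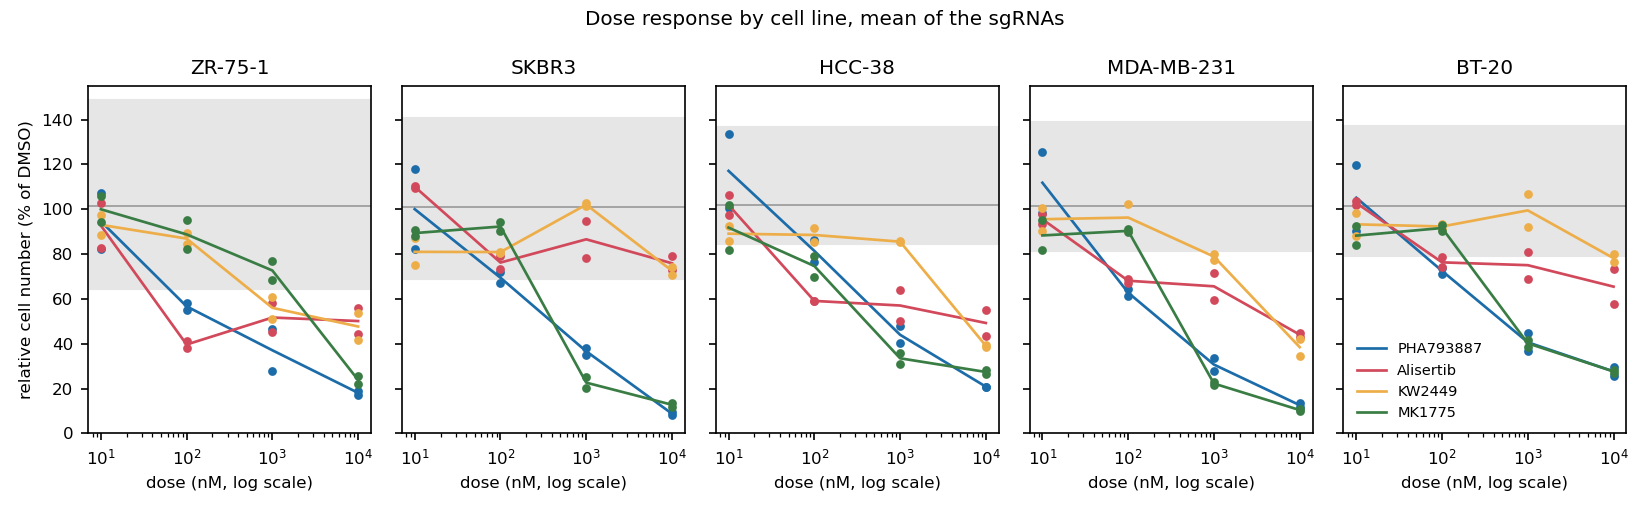
Relative cell number (percent of DMSO, mean over the sgRNAs of a line) against dose (nM, log axis) for the 4 compounds, with 1 panel per line. Points are wells, lines join the means of 2 wells, the grey line is the mean of the 96 DMSO wells and the grey band their range. PHA793887 fell at every step. Alisertib had no step above 100 nM that passed except in MDA-MB-231, which fell again at 10000 nM. MK1775 fell most between 100 and 1000 nM in 4 lines and between 1000 and 10000 nM in ZR-75-1.

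PHA793887, the CDK inhibitor, gave a graded fall. Cell number fell at each of its 15 steps between adjacent doses (5 lines, 3 steps), where 25.7% of all such steps in the screen fell (limma, adjusted p under 0.05 over all compounds, steps and lines) and 0.581% rose. In SKBR3 the replicate wells read 117.98 and 82.1% at 10 nM, 71.8 and 67.1% at 100 nM, 34.99 and 38.3% at 1000 nM, and 8.14 and 9.44% at 10000 nM. The last of these steps, -2.06 on the log2 scale (SE 0.19, adjusted p = 3.8e-24), was the largest fall of the 15. In BT-20 the wells read 119.8 and 90.5%, 71.2 and 73.8%, 36.6 and 44.7%, and 29.5 and 25.8% at the 4 doses, and the last step was only -0.55 (SE 0.15, adjusted p = 0.0017). MDA-MB-231 went from 125.5 and 98.1% at 10 nM through 61.3 and 64.2%, then 27.7 and 33.7%, to 11.8 and 13.4% at 10000 nM.

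In HCC-38 the values at 100 nM were the highest of the 5 lines, at 86.2 and 76.6%, after 133.7 and 100.6% at 10 nM, and they fell to 40.2 and 47.8% at 1000 nM and 20.9 and 20.8% at 10000 nM. ZR-75-1 had the lowest values at 100 nM, 58.3 and 55.05%, with 107.04 and 82.3% at 10 nM, and replicates further apart at 1000 nM (27.7 and 46.4%) than at 10000 nM (17.1 and 19.1%). All 5 lines were below 50% on average at 1000 nM and at 10000 nM. The lowest mean was that of ZR-75-1 at 100 nM (56.7%), MDA-MB-231 at 1000 nM (30.7%) and SKBR3 at 10000 nM (8.79%). Lines were not tested against each other at single doses. At 1000 nM the lower wells of ZR-75-1 and MDA-MB-231 both read 27.7%. At 10 nM replicate 1 was the higher well in all 5 lines, as happened in 1 direction or the other at 6 of the 16 doses of the 4 compounds (37.5%) and at 44.04% of those in the screen. Without the 5 wells with many never-made pairs, a choice made after seeing the data, PHA793887 had no well left at 10 nM, the count lower than DMSO remained 47 (of 75 combinations), and 26 of the 28 falls that could still be tested were called.

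Alisertib, the Aurora kinase inhibitor, showed no further step past the threshold above 100 nM in 4 of the 5 lines. All 5 lines fell between 10 and 100 nM, none of the 5 changed detectably between 100 and 1000 nM (log2 steps of -0.06 to 0.37), and only MDA-MB-231 fell again between 1000 and 10000 nM (-0.57, SE 0.19, adjusted p = 0.0098). ZR-75-1 showed the deepest first fall, from 82.6 and 102.9% at 10 nM to 41.1 and 38.2% at 100 nM (-1.22, SE 0.21, adjusted p = 9.6e-08). Its higher doses read 45.1 and 58.3% at 1000 nM and 55.99 and 44.3% at 10000 nM, no lower than at 100 nM. The 95% interval of the ZR-75-1 step from 100 to 1000 nM ran from -0.04 to 0.79, so that a rise in cell number at that step was not detectable here but is inside the interval. Further falls are inside the intervals of the last step in HCC-38 (-0.21, 95% CI -0.53 to 0.10) and BT-20 (-0.20, 95% CI -0.50 to 0.10). The change from 100 to 10000 nM was not tested.

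SKBR3 was the least affected line, with 109.7 and 110.5% at 10 nM, 73.3 and 79.1% at 100 nM, 78.5 and 94.7% at 1000 nM and 79.1 and 72.7% at 10000 nM, and its 1000 nM value was the only one from 100 nM upward that was not lower than DMSO (adjusted p = 0.25). BT-20 followed with 102.1 and 103.5%, 74.1 and 78.5%, 69.01 and 81.1%, and 73.2 and 57.8%. HCC-38 read 106.2 and 97.6% at 10 nM, then 59.3 and 58.9%, 50.3 and 63.8%, and 54.9 and 43.7%. In MDA-MB-231 the wells held 93.2 and 97.9%, 67.2 and 69.01%, 59.6 and 71.6%, and 44.996 and 43.1%. Only ZR-75-1 averaged below 50% at 100 nM, no line did at 1000 nM, and HCC-38 and MDA-MB-231 did at 10000 nM. At 1000 nM replicate 2 was the higher well in all 5 lines, and at 10000 nM replicate 1 was.

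KW2449, whose listed targets include Aurora kinase beside FLT3, FGFR and Bcr-Abl, had the highest AUC of the 4 when averaged over the lines. Of its 15 steps 4 fell, a share near that of all steps in the screen (25.7%). These were 1 in ZR-75-1 between 100 and 1000 nM and 3 between 1000 and 10000 nM, in SKBR3, HCC-38 and MDA-MB-231. HCC-38 stayed between 85.2 and 92.6% in all 6 wells up to 1000 nM and then fell to 39.6 and 38.5% (-1.13, SE 0.16, adjusted p = 5.1e-11). MDA-MB-231 also fell most at the last step, with 100.7 and 90.4%, 102.2 and 90.3%, 80.2 and 77.6%, and 42.2 and 34.7% (last step -1.04, SE 0.19, adjusted p = 2.2e-07). At 1000 nM MDA-MB-231 was already lower than DMSO (-0.36 log2, adjusted p = 0.023), where HCC-38 was not (adjusted p = 0.093). ZR-75-1 dropped at a lower dose, from 84.5 and 89.4% at 100 nM to 60.9 and 51.2% at 1000 nM, with 97.4 and 88.7% at 10 nM and 53.9 and 41.5% at 10000 nM.

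SKBR3 gave KW2449 values without order in dose below 10000 nM, since 10 nM (87.1 and 74.9%) and 100 nM (81.1 and 80.7%) both lay under 1000 nM (101.3 and 102.8%), and it ended at 70.7 and 74.4%. Its 10 nM value was not lower than DMSO in the main fit (limma adjusted p = 0.065). It passed against DMSO wells of the same dose level and replicate label (adjusted p = 0.027) and on the percent scale (adjusted p = 0.0089). On the percent scale SKBR3 at 100 nM (adjusted p = 0.0085, 0.068 in the main fit) and HCC-38 at 1000 nM (adjusted p = 0.042, 0.093 in the main fit) passed too. BT-20 was 98.4 and 88.2%, 93.4 and 91.2%, and 106.9 and 92.1% at the first 3 doses and 76.4 and 79.96% at 10000 nM. That last BT-20 value was lower than DMSO (-0.37 log2, SE 0.11, adjusted p = 0.0031) although the step that led to it did not pass (adjusted p = 0.09).

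MK1775, the Wee1 inhibitor, had all of its falls above 100 nM, in 8 of 15 steps (25.7% of all steps in the screen fell). BT-20, HCC-38, MDA-MB-231 and SKBR3 fell steeply between 100 and 1000 nM, whereas in ZR-75-1 the only step that passed was that from 1000 to 10000 nM. In MDA-MB-231 the wells read 81.6 and 95.0% at 10 nM, 91.02 and 89.7% at 100 nM, 22.7 and 21.8% at 1000 nM and 9.87 and 10.96% at 10000 nM, and the step from 100 to 1000 nM was -2.02 on the log2 scale (SE 0.19, adjusted p = 1.6e-24). SKBR3 was similar, at 88.1 and 90.6%, 94.5 and 90.1%, 24.98 and 20.3%, and 13.6 and 11.9% (step -2.03, SE 0.19, adjusted p = 1.4e-23). HCC-38 (101.9 and 81.7%, 79.3 and 69.995%, 35.9 and 31.1%, 28.3 and 26.5%) was the only line already lower than DMSO at 100 nM (adjusted p = 0.00046), and its step from 1000 to 10000 nM did not pass (-0.29, adjusted p = 0.22). BT-20 fell at both of the upper steps, from 83.9 and 92.6% and then 90.4 and 92.8% to 41.7 and 38.7% and 27.01 and 28.3%. The step from 1000 to 10000 nM also passed in SKBR3 (-0.82, adjusted p = 0.00011) and MDA-MB-231 (-1.10, adjusted p = 4.5e-08).

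ZR-75-1 kept 76.9 and 68.5% of its cells at 1000 nM of MK1775, after 94.1 and 105.9% at 10 nM and 95.3 and 82.3% at 100 nM. Its value at 1000 nM was lower than DMSO (-0.47 log2, 95% CI -0.77 to -0.18, adjusted p = 0.0060), as in the other 4 lines. Its fall to 22.2 and 25.5% at 10000 nM (-1.61, SE 0.21, adjusted p = 9.6e-13) brought it into the range of the other 4 lines. At 1000 nM no well of ZR-75-1 overlapped with those of the other lines, whose highest value was 41.7%. The library of MK1775 at 10000 nM, replicate 1, held the fewest reads of the 32 wells (30125).

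Over the 4 compounds, 33 of the 60 steps fell and 0 rose, where 25.7% and 0.581% of all steps in the screen did. PHA793887 held 15 of the 33, MK1775 8, Alisertib 6 and KW2449 4. With sgNT alone in place of the mean of the sgRNAs, 14 steps passed, all of the 33 keeping their direction.

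**Figure D2:**
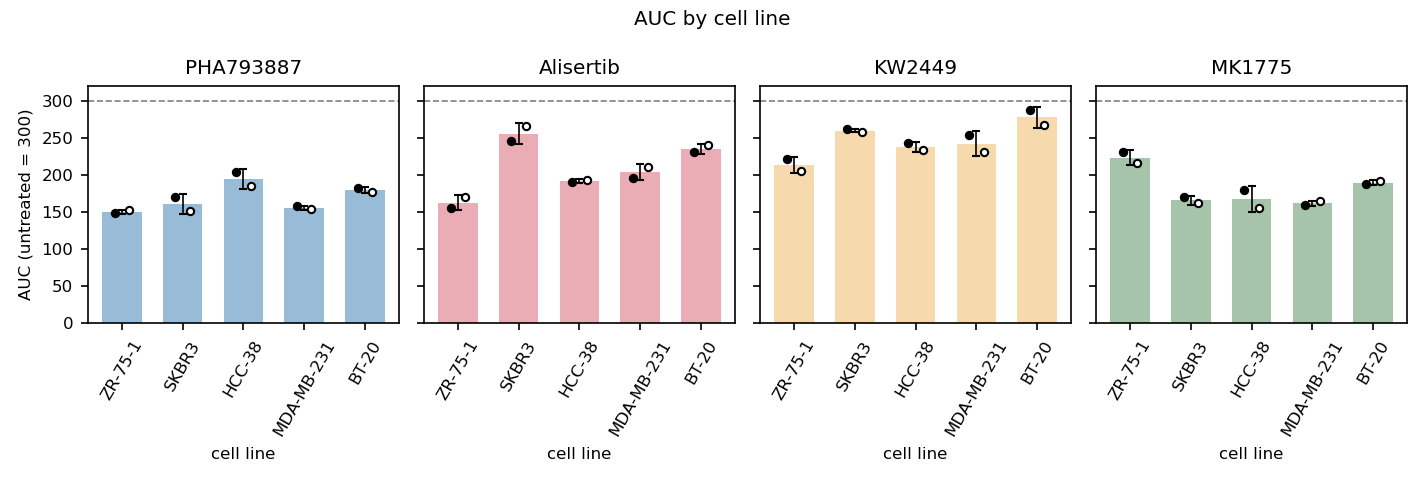
AUC of the dose-response curve (bars, mean of 2 replicates, with error bars of 1 SD) by compound and cell line, with replicate 1 as filled and replicate 2 as open points and the value of untreated cells (300) as a dashed line. ZR-75-1 has the lowest AUC of the 5 lines under PHA793887, Alisertib and KW2449 and the highest under MK1775.

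The AUC (area under the curve) adds up relative cell number over the doses, counting the lowest and the highest dose with a weight of 0.5 and the 2 between them with 1, so that untreated cells score 300 and a low AUC stands for a strong response. Averaged over the lines, PHA793887 (168.05) ranked 27th from the lowest among the compounds fitted, MK1775 (181.8) ranked 34th, Alisertib (209.9) ranked 40th and KW2449 (246.2) ranked 64th. Doses differed among these compounds, so that these ranks describe the screen as it was run.

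The question of which lines stood apart was put to each compound by testing the AUC of 1 line against the mean of the other 4. Alisertib separated the lines most. Its AUC in ZR-75-1 was 155.5 and 169.99 in the 2 replicates, 58.9 below the mean of the other lines (95% CI -77.1 to -40.7, adjusted p = 0.0015), while that in SKBR3 was 246.1 and 265.5, which was 57.4 above (95% CI 39.2 to 75.6, adjusted p = 0.0018), and that in BT-20 was 230.8 and 240.3, which was 32.04 above (95% CI 13.8 to 50.3, adjusted p = 0.021). No Alisertib well set of ZR-75-1 overlapped with those of the other lines, of which HCC-38 (190.2 and 193.3) was the nearest, followed by MDA-MB-231 (195.9 and 211.2).

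Under KW2449, ZR-75-1 again had the lowest AUC (220.99 and 205.6, a difference of -41.1, 95% CI -61.2 to -21.02, adjusted p = 0.011) while the highest was that of BT-20, not SKBR3 (287.7 and 267.4, a difference of 39.2, 95% CI 19.1 to 59.3, adjusted p = 0.013). HCC-38 (243.1 and 233.3), MDA-MB-231 (253.9 and 230.5) and SKBR3 (261.3 and 258.2) lay between them and did not pass.

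MK1775 ran the other way for ZR-75-1. With an AUC of 230.4 and 216.4, that line was 52.01 above the mean of the other 4 (95% CI 33.7 to 70.4, adjusted p = 0.0029), which were 170.3 and 161.7 in SKBR3, 180.4 and 155.2 in HCC-38, 159.5 and 164.4 in MDA-MB-231, and 187.6 and 191.9 in BT-20. PHA793887 gave the narrowest range of line means, from 150.1 in ZR-75-1 (148.1 and 152.1) to 194.4 in HCC-38 (203.7 and 185.1), and HCC-38 was the only line to pass (32.95 above the others, 95% CI 15.5 to 50.4, adjusted p = 0.0155). SKBR3 (169.9 and 151.1), MDA-MB-231 (157.7 and 153.7) and BT-20 (182.4 and 176.6) did not, and the replicates of ZR-75-1 overlapped with those of SKBR3.

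In all, 7 of the 20 line differences passed, against 21.7% of those of all compounds. Because the lines of a replicate come from the same wells, the replicate number was also fitted as a block, under which 12 of 20 passed (39.1% over all compounds). The 5 gained were PHA793887 in ZR-75-1 (-22.4, adjusted p = 0.015), Alisertib in HCC-38 (-22.7, adjusted p = 0.00701), KW2449 in SKBR3 (16.95, adjusted p = 0.036) and MK1775 in SKBR3 (-19.7, adjusted p = 0.041) and in MDA-MB-231 (-24.8, adjusted p = 0.0155). With sgNT alone 0 of 20 passed, although the 7 kept their direction.

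**Figure D3:**
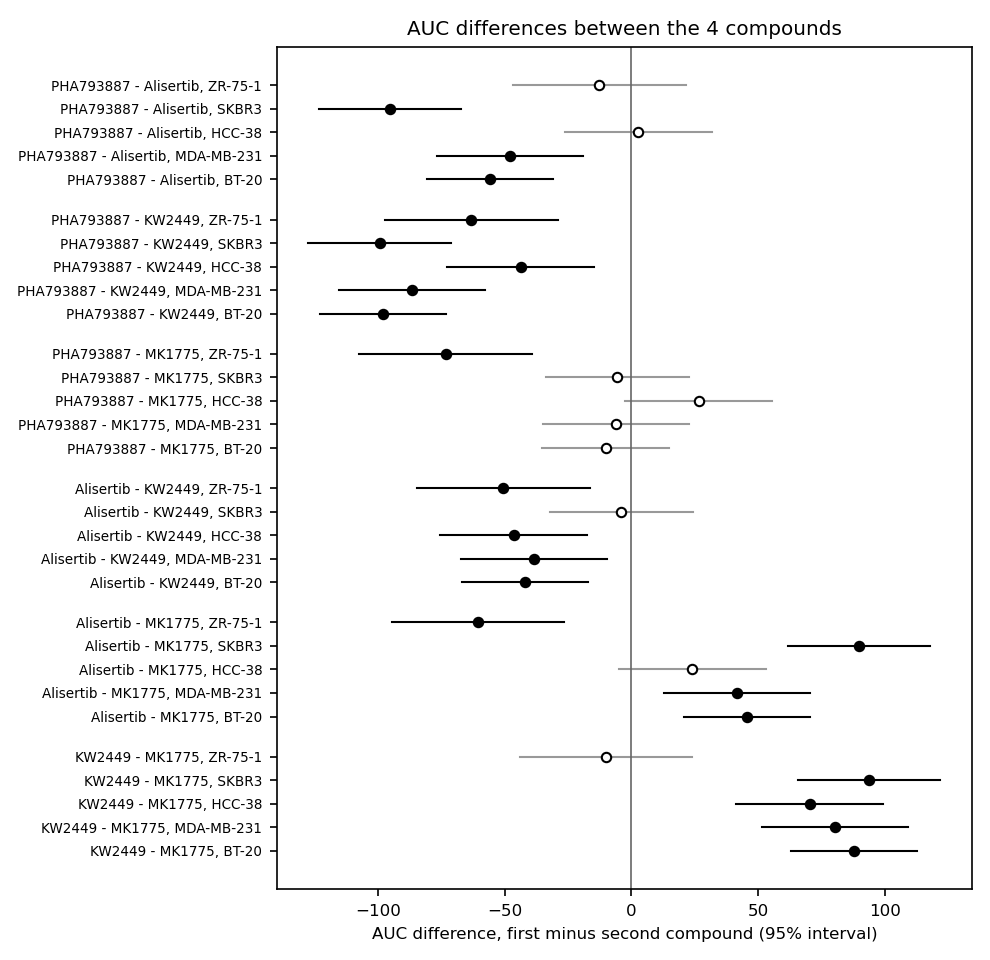
Difference in AUC between each pair of the 4 compounds in each line (first compound minus second), with 95% intervals from the limma fit and filled points where the adjusted p was under 0.05. The differences of PHA793887 from KW2449 all lie below 0, and the difference of Alisertib from MK1775 lies below 0 in ZR-75-1 and above 0 in the other 4 lines.

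The 4 compounds had the same doses, and the 6 pairs among them were compared in each line, with p values adjusted over the 30 AUC differences and, separately, over 120 differences in log2 relative cell number at matched doses. These compounds were grouped by target, and no relation of structure is given for them, so that none is compared here. In total 21 of the 30 AUC differences passed. Differences of at least the smallest t that passed were found in 58.3% of the comparisons of all compounds with these doses, so that the count itself is not particular to these 4. With sgNT alone 10 of the 30 passed, and each of the 21 kept its direction.

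PHA793887 had a lower AUC than KW2449 in 5 of 5 lines, with differences from -43.8 in HCC-38 (95% CI -72.8 to -14.7, adjusted p = 0.0055) down to -99.3 in SKBR3 (95% CI -127 to -71.1, adjusted p = 4.9e-10). It left fewer cells than KW2449 in all 5 lines at 1000 and at 10000 nM. At 10 nM the only difference of this pair that passed ran the other way (HCC-38, 0.38 log2, 95% CI 0.07 to 0.70, adjusted p = 0.038). Both PHA793887 wells at 10 nM were among those with many never-made pairs. The AUC of PHA793887 was also lower than that of Alisertib in SKBR3 (-95.3, 95% CI -123 to -67.1, adjusted p = 1.8e-09), BT-20 (-55.98, 95% CI -80.9 to -31.1, adjusted p = 4.5e-05) and MDA-MB-231 (-47.9, 95% CI -76.7 to -19.1, adjusted p = 0.0023). In ZR-75-1 and HCC-38, PHA793887 and Alisertib did not differ detectably, with differences of -12.6 (95% CI -46.7 to 21.4) and 2.66 (95% CI -26.4 to 31.7).

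The matched doses show how the PHA793887 and Alisertib curves crossed. At 100 nM Alisertib left fewer cells than PHA793887 in ZR-75-1 (39.6 against 56.7%, log2 difference 0.52, 95% CI 0.10 to 0.93, adjusted p = 0.033) and HCC-38 (59.1 against 81.4%, 0.46, 95% CI 0.14 to 0.77, adjusted p = 0.011). At 1000 nM PHA793887 left fewer in all 5 lines, by -0.37 (HCC-38, adjusted p = 0.044) to -1.24 (SKBR3, adjusted p = 7.3e-10), and at 10000 nM by -1.23 (HCC-38, 95% CI -1.55 to -0.92) to -3.11 (SKBR3, 95% CI -3.49 to -2.74).

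PHA793887 and MK1775 differed in AUC in 1 of 5 lines, ZR-75-1 (-73.3, 95% CI -107.3 to -39.2, adjusted p = 9.1e-05). The other 4 differences ran from -10.2 in BT-20 (95% CI -35.1 to 14.7) to 26.6 in HCC-38 (95% CI -2.42 to 55.7), and their intervals all included 0. At 1000 nM they parted in both directions, since PHA793887 left fewer cells in ZR-75-1 (37.1 against 72.7%, -1.02, 95% CI -1.43 to -0.60, adjusted p = 6.1e-06) and MK1775 left fewer in SKBR3 (22.6 against 36.6%, 0.70, 95% CI 0.33 to 1.07, adjusted p = 0.00079), HCC-38 (0.39, adjusted p = 0.033) and MDA-MB-231 (0.46, adjusted p = 0.032). The MDA-MB-231 difference had the opposite sign with sgNT alone (-0.06). In BT-20 it was 0.01 (95% CI -0.29 to 0.31). At 10000 nM the sign had turned in SKBR3 (-0.54, 95% CI -0.91 to -0.17, adjusted p = 0.012) and HCC-38 (-0.39, 95% CI -0.71 to -0.08, adjusted p = 0.033), where PHA793887 left fewer cells, and at 100 nM it left fewer in ZR-75-1 (-0.64, adjusted p = 0.0065) and MDA-MB-231 (-0.53, adjusted p = 0.012). None of the 5 lines passed at 10 nM.

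Alisertib had a lower AUC than KW2449, with which it shares a listed target, in 4 of 5 lines, by 38.6 (MDA-MB-231, 95% CI -67.4 to -9.84, adjusted p = 0.013) to 50.5 (ZR-75-1, 95% CI -84.6 to -16.5, adjusted p = 0.0060). In SKBR3 the difference was -3.97 (95% CI -32.2 to 24.2). At 10 nM the only difference that passed ran the other way (SKBR3, 0.45, 95% CI 0.07 to 0.82, adjusted p = 0.040). At 100 nM, 3 of 5 lines differed, ZR-75-1 by the most (39.6 against 86.9%, -1.13, 95% CI -1.55 to -0.72, adjusted p = 3.9e-07), followed by HCC-38 (-0.58, adjusted p = 0.000925) and MDA-MB-231 (-0.50, adjusted p = 0.018). At 1000 nM, HCC-38 (-0.59, adjusted p = 0.00072) and BT-20 (-0.41, adjusted p = 0.019) passed. At 10000 nM none of the 5 lines passed (differences of -0.27 to 0.32, with intervals between -0.57 and 0.64).

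The pair of Alisertib and MK1775 changed sign between lines. Alisertib had the lower AUC in ZR-75-1 (-60.6, 95% CI -94.7 to -26.6, adjusted p = 0.0012), and MK1775 had the lower AUC in SKBR3 (89.8, 95% CI 61.6 to 117.96, adjusted p = 9.8e-09), BT-20 (45.8, 95% CI 20.9 to 70.6, adjusted p = 0.00084) and MDA-MB-231 (41.6, 95% CI 12.8 to 70.4, adjusted p = 0.0073). HCC-38 did not pass (23.96, 95% CI -5.08 to 52.99). At 1000 nM the 5 differences passed with the same signs, from -0.50 in ZR-75-1 (adjusted p = 0.038) to 1.94 in SKBR3 (22.6 against 86.6%, adjusted p = 1.1e-21), and at 10000 nM MK1775 left fewer cells in all 5 lines, ZR-75-1 included (23.8 against 50.1%, 1.07, 95% CI 0.65 to 1.48, adjusted p = 1.9e-06).

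KW2449 and MK1775 differed in 4 of 5 lines by 70.4 (HCC-38, 95% CI 41.4 to 99.4) to 93.7 (SKBR3, 95% CI 65.6 to 121.9), and not in ZR-75-1 (-10.1, 95% CI -44.1 to 23.97). Over all 6 pairs, 60 of the 120 differences at matched doses passed. By dose these were 2 of 30 at 10 nM, 11 at 100 nM, 25 at 1000 nM and 22 at 10000 nM, against 14.7%, 29.8%, 45.7% and 73.8% of the comparisons of all compounds with these doses.

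**Figure D4:**
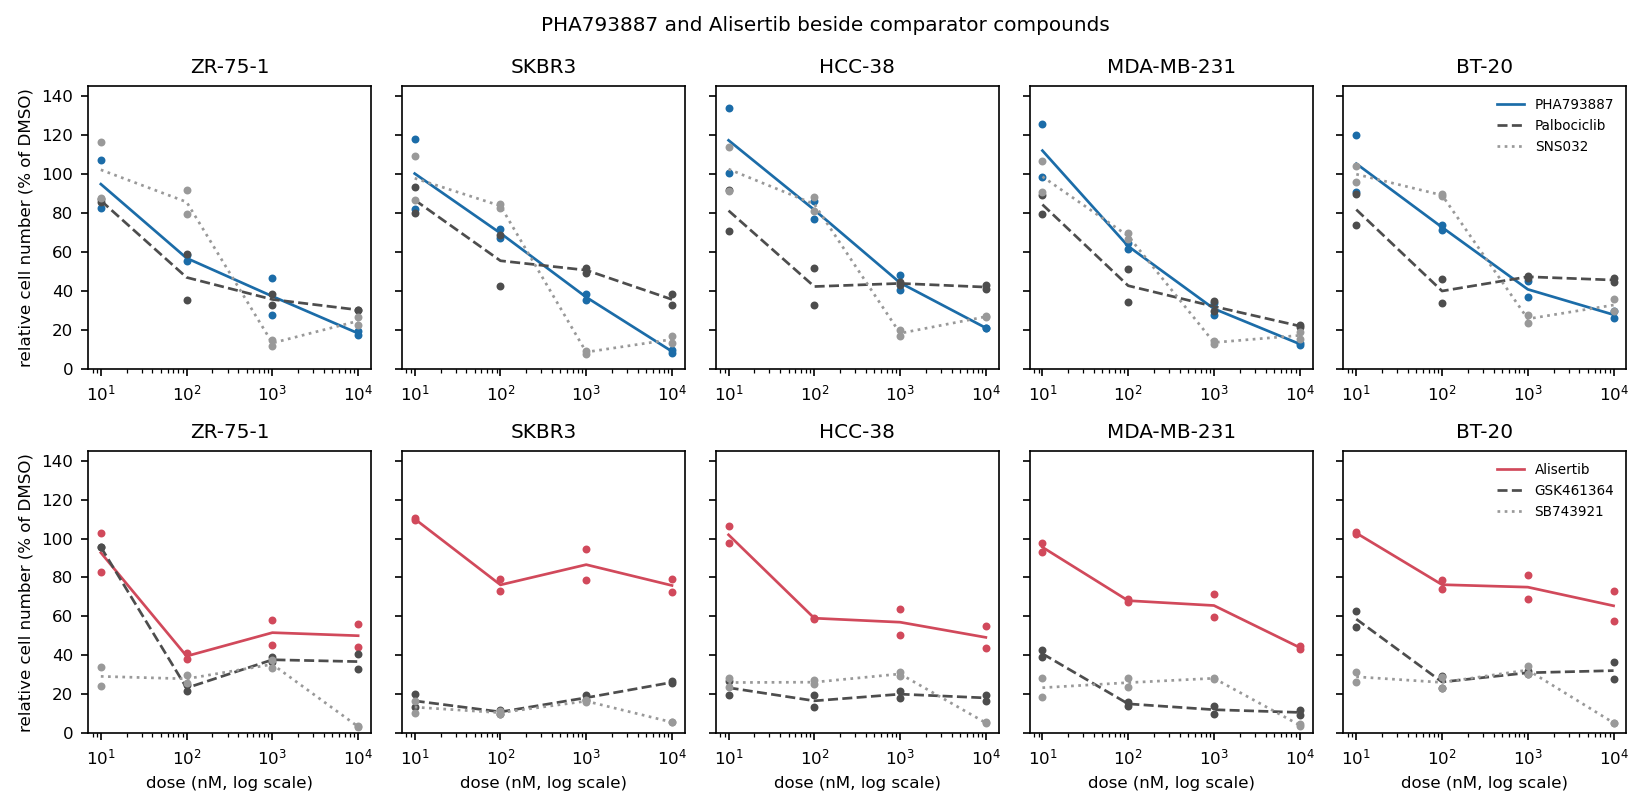
Relative cell number (percent of DMSO, mean over the sgRNAs of a line and 2 wells) against dose (nM, log axis) of PHA793887 beside the other CDK inhibitors Palbociclib and SNS032, and of Alisertib beside the PLK inhibitor GSK461364 and the kinesin inhibitor SB743921, by line. Alisertib stays above both of its comparators at every dose from 100 nM in each line.

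In total 11 of 20 differences from comparator compounds passed, where 62.7% of all comparisons at these doses reached the smallest t that did so. Other compounds of the screen act on the same processes at the same doses. Palbociclib is known as an inhibitor of CDK4 and CDK6, the kinases of the early cycle, SNS032 is listed as a CDK inhibitor, GSK461364 inhibits PLK, a kinase of mitotic entry and spindle assembly, and SB743921 inhibits a kinesin, a motor of the spindle. PHA793887 did not differ detectably in AUC from SNS032 in any line (differences of -11.6 to 27.5, with intervals between -45.7 and 56.5, adjusted over 20 comparisons). Their curves had different shapes, since SNS032 left 68.03 to 88.97% of the cells at 100 nM and 8.44 to 25.5% at 1000 nM, where PHA793887 left 56.7 to 81.4% and 30.7 to 44.002%. Palbociclib had the lower AUC in HCC-38 (difference 47.2, 95% CI 18.2 to 76.2, adjusted p = 0.0031) and BT-20 (29.1, 95% CI 4.25 to 54.01, adjusted p = 0.040).

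Alisertib had higher AUC values than both of the other mitotic inhibitors. SB743921 had a lower AUC in 5 of 5 lines, by 82.97 in ZR-75-1 (95% CI 48.9 to 117.02) to 219.02 in SKBR3 (95% CI 190.8 to 247.2). GSK461364 had a lower AUC in 4 of 5, by 132.6 in BT-20 (95% CI 107.7 to 157.5) to 205.03 in SKBR3 (95% CI 176.8 to 233.2), and in ZR-75-1 the difference was 35.5 (95% CI 1.40 to 69.5, adjusted p = 0.069). SKBR3, the line in which Alisertib had its highest rank (81st lowest), had 16.7% of its cells left at 10 nM of GSK461364 and 13.5% at 10 nM of SB743921, where Alisertib left 110.1%.

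Likeness of the dose-response curves was described by Pearson's r over 20 values (5 lines at 4 doses, log2 scale), which share wells and all carry the fall with dose. Among the 4 compounds it was 0.915 for PHA793887 and MK1775, 0.674 for PHA793887 and KW2449, 0.627 for Alisertib and KW2449, 0.584 for PHA793887 and Alisertib, 0.552 for KW2449 and MK1775, and 0.408 for Alisertib and MK1775. Among the other compounds with these doses, the curves nearest to PHA793887 were those of PIK93 (0.962), PF3758309 (0.954) and Doxorubicin (0.948), and those nearest to MK1775 were Etoposide (0.951), Decitabine (0.934) and MLN2238 (0.933). KW2449 was nearest to BMS536924 (0.918), BMS754807 (0.905) and Crizotinib (0.901). Alisertib had the least close neighbours, with Palbociclib first (0.796), before Selumetinib (0.733) and Trametinib (0.730).

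**Figure D5:**
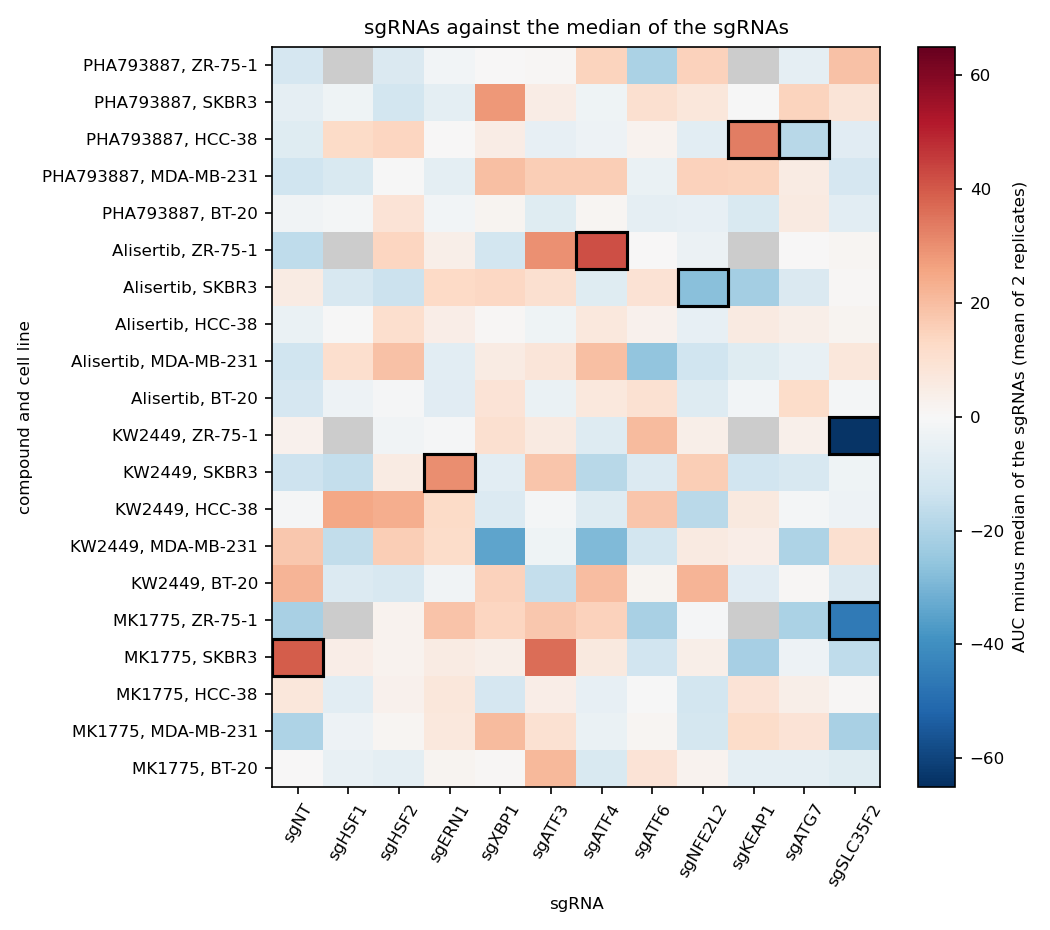
AUC of each sgRNA minus the median of the sgRNAs of its line (colour, mean of 2 replicates) for the 20 compound-line combinations (rows) and 12 sgRNAs (columns). Boxes mark the highest and the lowest difference of each compound that lay on the same side in both replicates, and grey cells are the 2 ZR-75-1 guides left out. None of the differences passed.

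The last question was whether disabling a proteostasis gene changed the response, for which the AUC of each sgRNA was set against the median AUC of the sgRNAs in its line and replicate. Of 58 differences per compound, 0 passed in any of the 4 (limma on these differences, adjusted over 9976 differences of all compounds, lowest adjusted p = 0.065), where 1.11% of all compounds' differences did. At an unadjusted p under 0.05 there were 16 (11 higher, 5 lower), where 9.77% of all differences were under it. On the same side of the median in both replicates lay 26 (PHA793887), 28 (Alisertib), 36 (KW2449) and 30 (MK1775) of the 58. The median splits the guides of each replicate evenly, so that many agree in side without any effect. A share over all compounds was not computed, and these counts are only a description. Per compound, KW2449 had 7 of the 16, Alisertib and MK1775 had 4 each and PHA793887 had 1. The guides of PHA793887 in BT-20 (SD over sgRNAs 5.65) and of Alisertib in HCC-38 (SD 4.79) lay closest together, and those of KW2449 (SD 22.7) and MK1775 (SD 21.9) in ZR-75-1 furthest apart.

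For each compound the highest and the lowest difference with the same sign in both replicates are given, and since these were selected for their size they are a description. Under Alisertib, ZR-75-1 cells with sgATF4 had an AUC of 173.6 and 223.6, 23.5 and 59.9 above the medians of the 2 replicates (mean 41.7, 95% CI 20.5 to 62.9, adjusted p = 0.065). ATF4 is a transcription factor of the integrated stress response. Its wells read 75.7 and 129.2% at 10 nM, 50.8 and 44.7% at 100 nM, 52.3 and 85.7% at 1000 nM and 65.3 and 57.3% at 10000 nM, beside medians of 83.9 and 106.6%, 42.1 and 37.6%, 46.2 and 52.1%, and 56.97 and 46.3%. From 100 nM upward each of the 6 values was above its median. In DMSO wells this line and guide had an SD of log2 cell number of 0.45, where the median over the 60 pairs of line and guide was 0.26. Under PHA793887, MK1775 and KW2449 the mean differences of the same cells were 14.5, 15.1 and -8.44. SKBR3 cells with sgNFE2L2 were lowest under Alisertib, by -50.3 and -3.91 (mean -27.1, adjusted p = 0.47).

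The lowest differences under KW2449 and MK1775 were both of sgSLC35F2 in ZR-75-1. Under KW2449 these cells had an AUC of 165.9 and 139.1, which lay at -58.6 and -68.6 from the medians (mean -63.6, 95% CI -97.4 to -29.8, adjusted p = 0.084). Their values were 42.6 and 85.1% at 10 nM, 42.1 and 47.9% at 100 nM, 71.7 and 35.6% at 1000 nM, and 61.5 and 26.03% at 10000 nM. The medians beside them were 96.98 and 88.8%, 84.9 and 94.4%, 60.2 and 48.9%, and 53.5 and 42.4%. In replicate 1 the values did not fall with dose. At 1000 and 10000 nM replicate 1 lay above its median and replicate 2 below. Under MK1775 the AUC was 193.4 and 170.2 (-41.9 and -49.6, mean -45.7, adjusted p = 0.53). In DMSO wells this line and guide had an SD of log2 cell number of 0.63, where the median over the 60 pairs of line and guide was 0.26, and its fewest reads were 49, in an MK1775 well. Their part in the differences was not tested. Under Alisertib and PHA793887 the mean differences of the same cells were 1.21 and 19.1. On a log2 AUC scale the KW2449 difference was the only one of the 4 compounds that passed (-0.51, adjusted p = 0.032), where 0.892% of all compounds' differences did.

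MK1775 had its highest difference in SKBR3 cells with sgNT, whose AUC was 197.5 and 205.02 (32.97 and 45.5 above the medians, mean 39.3, 95% CI 18.5 to 60.0, adjusted p = 0.073). Both wells lay above their medians at 10 nM (112.3 and 110.7%, medians 88.2 and 86.1%) and at 10000 nM (13.5 and 16.004%, medians 12.6 and 10.6%). At 100 nM only replicate 2 did (95.3 and 121.4%, medians 95.4 and 87.4%), and at 1000 nM only replicate 1 (39.3 and 20.2%, medians 23.95 and 20.7%). Against sgNT in place of the median, 1 difference of the 4 compounds passed, SKBR3 sgKEAP1 under MK1775 (-61.0, adjusted p = 0.038, with 1.36% called over all compounds), in the same line and against the same high sgNT values.

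PHA793887 had its highest difference in HCC-38 cells with sgKEAP1, 46.5 and 20.3 above the medians (mean 33.4, 95% CI 12.0 to 54.8, adjusted p = 0.17). KEAP1 marks NRF2 for degradation, so that its loss raises the oxidative stress response. Cells with sgKEAP1 had 170.3 and 96.99% at 10 nM (medians 128.3 and 99.98%), where the replicates went different ways, and 100.3 and 86.03% at 100 nM, 46.9 and 59.3% at 1000 nM and 23.9 and 28.7% at 10000 nM, each above its median. The lowest was sgATG7 in the same line, by -19.2 and -16.98 (adjusted p = 0.625). A different test took the reads of each sgRNA, with the reads of its line as offset, against DMSO wells (edgeR quasi-likelihood). It asks whether the share of a guide in its line differed from DMSO, not whether its AUC differed from the median. Among the 4 compounds it called only sgATG7 in HCC-38 under PHA793887 (-0.16 log2, adjusted p = 0.0030, 1.56% called over all compounds). ATG7 is an enzyme needed to build autophagosomes. KW2449 had its highest in SKBR3 cells with sgERN1 (14.3 and 45.9, mean 30.1, adjusted p = 0.57), the sensor IRE1 of unfolded proteins.

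No guide moved 1 way across the compounds. Over the 20 combinations of compound and line (16 for sgHSF1 and sgKEAP1), the median difference from the median sgRNA ran from -5.04 for sgNT to 5.44 for sgATF3, and the guide with the most combinations above the median in both replicates had 9 (sgATF3 and sgXBP1), beside 4 and 3 below. For sgATG7 0 were above and 2 below in both replicates, and for sgSLC35F2 2 were above and 8 below.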

How the data were processed

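Members, comparators and lists were chosen with earlier results of these data known. The authors deposited, for every well, the count of reads on each of 126 pairs of a cell line barcode and an sgRNA barcode (bcl2fastq, no alignment and no normalization), and, for 174 compounds, relative cell numbers in percent, that is the ratio of interpolated cells to the median of DMSO wells. The 4 compounds have 160 of 6960 rows of that table. Values recomputed from the counts matched 83520 deposited ones within 5.3e-05 on the log2 scale. Compound, dose level and replicate came from the labels, and doses from the study's compound list. Each plate of DMSO wells carries 1 dose level and 1 replicate label, so that these and the plate cannot be told apart, and the plate of a compound well was not used here.

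As in the methods, compounds with few reads (6), the ZR-75-1 guides sgHSF1 and sgKEAP1 (SD of log2 cell number over 0.7 in DMSO wells) and 2 compounds with an AUC over 550 were left out, which left 172 compounds and 58 pairs of line and guide. The methods' other criteria (sgNT still at 90% at the top dose, or a fall of under 25 percentage points) were an alternative for the sgRNAs. limma 3.58.1 (R 4.3.3) was fitted to log2 relative cell numbers and to AUC values over all 172 compounds. As an alternative, edgeR 4.0.16 was fitted to the reads of each compound against DMSO. All tests were two-sided, with Benjamini-Hochberg adjustment and a threshold of 0.05. Both wells of a compound and dose carry replicate numbers, and all lines and sgRNAs of a number share its wells, so that the number pairs lines and sgRNAs but not compounds. The named sgRNAs are, per compound, those with the highest and the lowest mean difference among differences of the same sign in both replicates. Alternatives were sgNT or the median over sgRNAs in place of the mean, other DMSO references, scales, read minimums (20) and blocks, and each replicate left out. Reads carry no molecular identifiers, and the spread between wells sets the precision.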

Additional observations from a re-analysis of the deposited data

Results flagged for a closer look

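In 7 cases the AUC of 1 line under a compound stood apart from the average of the others, by the test of that difference. These were Alisertib in ZR-75-1 (-58.9), SKBR3 (57.4) and BT-20 (32.04), KW2449 in ZR-75-1 (-41.1) and BT-20 (39.2), MK1775 in ZR-75-1 (52.01) and PHA793887 in HCC-38 (32.95).

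Reads on barcode pairs that were never made lie outside the relative cell numbers, and 5 PHA793887 wells held a larger share of them than any DMSO well (highest 0.924%). The shares were 2.06% and 0.949% at 10 nM (replicates 1 and 2), 1.98% at 100 nM (replicate 1), 1.15% at 1000 nM (replicate 2) and 1.11% at 10000 nM (replicate 1).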

How the results depend on the processing

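The largest changes came with sgNT alone in place of the mean of the sgRNAs, under which 14 steps fell (33 with the mean), 0 line differences passed (7) and 10 AUC differences between compounds passed (21), and the cause was not tested. Signs were compared for all AUC differences between lines, between compounds and from comparators, and elsewhere only for values that had passed. With sgNT alone 9 of these changed sign, namely the line differences of KW2449 in SKBR3 (-5.61) and MDA-MB-231 (14.3) and of MK1775 in SKBR3 (22.7), the AUC differences of PHA793887 from Alisertib in HCC-38 (-0.436), of Alisertib from KW2449 in SKBR3 (16.3), of KW2449 from MK1775 in ZR-75-1 (12.6) and of PHA793887 from SNS032 in MDA-MB-231 (-5.59) and BT-20 (4.67), and the log2 difference of PHA793887 from MK1775 at 1000 nM in MDA-MB-231 (-0.055). Only the last of these had passed. With the replicate number as a block, 12 line differences passed in place of 7, while 47 values stayed lower than DMSO, 33 steps fell, and 21 AUC and 60 matched-dose differences between compounds and 11 from comparators passed. With the median of the sgRNAs averaged over the replicates, in place of that of each replicate, 0 sgRNA differences passed for the 4 compounds. For sgRNAs, 1 difference passed with sgNT as reference, 1 on the log2 AUC scale and 1 with edgeR on reads, which tests against DMSO.

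Leaving out either replicate gave 42 values lower than DMSO (42 to 42), with 1 higher without replicate 2 (PHA793887 at 10 nM in HCC-38, 0.40 log2, limma adjusted p = 0.031), 23 to 26 falling steps and 42 to 51 matched-dose differences. With 1 replicate the AUC results have no residual degrees of freedom and no test, but the 7, 21 and 11 differences that passed kept their direction in each replicate. The 16 sgRNA differences of the 4 compounds at an unadjusted p under 0.05 became 9 with the median averaged over the replicates. They became 8 with pairs of line and guide as the rows of the fit and 27 with sgNT as reference. Over all compounds, 25 of 9976 sgRNA differences passed with the averaged median and 52 of 5638 with the methods' other criteria, where 1.11% had passed. The totals for DMSO, steps, lines, compound pairs and comparators lay within 1.5 times of their main values under the alternatives not named here. On the percent scale, 24 steps fell and 48 matched-dose differences passed (the latter chosen after seeing the data).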
